A study of Mus musculus with 8 samples.

Results

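The genes described here encode 10 components of intestinal mucus that are made by goblet cells or sit on the epithelial surface: Muc2, Fcgbp, Clca1, Tff3, Zg16, Agr2, Spink4, Retnlb, Muc13 and Muc4. They were listed by symbol, with no threshold on a measured value but with earlier results of these data known, and each matched 1 row of the deposited table of 53801 genes. The RNA came from viable EpCAM+ Cd24+ cells, sorted by FACS as Paneth cells from small intestinal crypts, and was amplified by the Smart-seq2 protocol. The methods text gives a small, fixed number of cells sorted into each tube before amplification. Both groups carried Lgr5-EGFP-IRES-CreERT2, in which the Lgr5 promoter drives a tamoxifen-inducible Cre in crypt stem cells and recombines crypts in a mosaic, and β-catGOF, a β-catenin allele that Cre stabilises by removing exon 3. The 4 controls were Mll1+/- and the 4 knockouts Mll1-/-, induced at 4 to 6 wk of age by 3 injections of tamoxifen, 1 mg each per the labels, and dissected 10 d later. The methods text on sorting names Mll1flox littermates without β-catGOF, while the sample labels and the results text name β-catGOF in both groups, and the labels were followed. The question was whether the mucus genes moved together over the 8 libraries, and whether they differed between the genotypes.

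Goblet cells and Paneth cells arise from a common secretory progenitor of the crypt. Goblet cells store mucins in large granules and release them as a hydrated gel, while Paneth cells at the crypt base store antimicrobial peptides. Muc2 is the mucin that forms the gel, Fcgbp, Clca1, Zg16 and Tff3 are secreted with it, Agr2 helps to fold it, and Muc13 and Muc4 are transmembrane mucins of the cell surface. In a bulk library, fewer cells that express a gene and less RNA of that gene per cell cannot be told apart, and neither can goblet cells inside the sort gate and Paneth cells that make mucus RNA.

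Muc2 and Fcgbp encode the largest secreted components of the gel and behaved differently over the libraries, the first being level and the second spread widely, so the 250 bases before their RefSeq start sites are shown (GRCm38.p6, plus strand, 5′ to 3′). Capitals mark GATAA, the core bound by Gata factors, on either strand, and the E-box CAGCTG. The Muc2 window is chr7:141690090-141690339 and the Fcgbp window is chr7:28070986-28071235.

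Muc2: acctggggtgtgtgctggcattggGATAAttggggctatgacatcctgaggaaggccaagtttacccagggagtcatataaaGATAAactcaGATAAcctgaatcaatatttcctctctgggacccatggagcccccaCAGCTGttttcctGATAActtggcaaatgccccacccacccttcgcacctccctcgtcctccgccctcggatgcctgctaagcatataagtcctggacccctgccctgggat

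Fcgbp: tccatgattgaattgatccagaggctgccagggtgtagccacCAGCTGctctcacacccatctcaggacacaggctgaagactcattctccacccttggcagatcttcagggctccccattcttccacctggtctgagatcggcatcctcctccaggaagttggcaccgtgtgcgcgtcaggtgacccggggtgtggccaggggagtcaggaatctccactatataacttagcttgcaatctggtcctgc

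The Muc2 window held 4 copies of GATAA, at -226, -168, -158 and -99 from the start, and 1 CAGCTG at -112. Of 32851 mouse promoter windows of this length, 22.6% held at least 1 GATAA on either strand, 0.119% held at least 4, and 13.0% held CAGCTG. The Fcgbp window held no GATAA and 1 CAGCTG at -208. RefSeq windows matched 5 of the 10 genes, Fcgbp, Muc2, Agr2, Muc4 and Muc13, and 6 windows were read because Muc13 has a second start. Neither GATAA nor CAGCTG was found in the windows of Agr2, Muc4 and Muc13. CTTTGAT, the Tcf/Lef core, was in no window of the 5 genes and in 3.21% of all windows. CCACCC, a Klf box, was in the windows of Muc2, Fcgbp, Agr2 and Muc4 and in 28.1% of all windows. TATAAA was in those of Muc2 and Muc4 and in 12.4% of all windows, with no overlap with the other motifs. These matches describe the letters of the windows, and binding was not measured.

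In mm10, the build of the counts, the genes lie on 6 chromosomes. Muc2 (ENSMUSG00000025515) spans 141690340 to 141754693 on chromosome 7, Fcgbp (ENSMUSG00000047730) spans 28071236 to 28120862 and Zg16 (ENSMUSG00000049350) spans 127050156 to 127087328 on the same chromosome. Muc13 (ENSMUSG00000022824, 33794037 to 33819934), Muc4 (ENSMUSG00000079620, 32735886 to 32782391) and Retnlb (ENSMUSG00000022650, 48816856 to 48818891) lie on chromosome 16. The others are Clca1 (ENSMUSG00000028255) on chromosome 3 from 145003817 to 145032776, Spink4 (ENSMUSG00000028415) on chromosome 4 from 40920052 to 40931395, Agr2 (ENSMUSG00000020581) on chromosome 12 from 35992907 to 36004087 and Tff3 (ENSMUSG00000024029) on chromosome 17 from 31125306 to 31129646. Reads were counted over exons. Of the exon bases of Muc13, 6.06% are shared with Gm15657, and of those of Muc4, 5.33% with Muc20, both on the opposite strand. The strand setting of the counting is not given in the sources used here, so a small part of the counts of these 2 genes may belong to their neighbours.

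Totals on genes lay between 13037832 and 14380240 per library, and a count of 3 corresponded to between 0.172 and 0.352 normalized CPM, the unit of all levels given below. CPM are counts scaled to a common library size. Library factors were computed with TMM, which assumes that most genes do not differ between libraries. Knockout 3 stood apart before any mucus gene was considered. Its TMM factor was 0.632, where the controls had 0.822 to 1.15 and knockouts 1, 2 and 4 had 1.22 to 1.34, it had counts on 19662 genes against 22623 to 26074 elsewhere, and mitochondrial transcripts made up 2.04% of its counts against 3.26% to 8.78%. A factor below 1 raises every normalized value of that library, so values scaled by the library total alone are given beside results that turned between the scales. On totals the median log2 fold change of all tested genes was 0.246, against 0.0085 after TMM scaling, and values on totals are to be read against it. The targeted gene, Kmt2a, which encodes Mll1, had counts of 719, 469, 268 and 284 in the controls and 523, 447, 328 and 468 in the knockouts. Its log2 fold change, knockout over control, was -0.06 ± 0.24 (SE; adjusted p = 0.995, edgeR quasi-likelihood test). Counts over the whole gene do not show whether the floxed part was lost, so they do not check the genotype labels. Paneth cell markers such as Lyz1 and the defensins took between 41.3% and 61.5% of all counts, and all 15 of the markers were measured above the filter. Of 15 immune cell markers only Ptprc passed the filter on low counts, and their summed level was 2.24 to 14.2 normalized CPM.

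The 10 mucus genes together took between 0.936% of the counts, in control 2, and 1.88%, in control 3. Within this sum, Spink4, which belongs to the Kazal family of serine protease inhibitors, supplied 59.0% to 77.8%. Retnlb, a resistin-like protein that acts on bacteria near the epithelium, supplied 10.7% to 21.3% in 7 libraries and 0.316% in control 2. In the knockouts the summed share was 1.18% to 1.55%, inside the range of the controls.

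**Figure D1:**
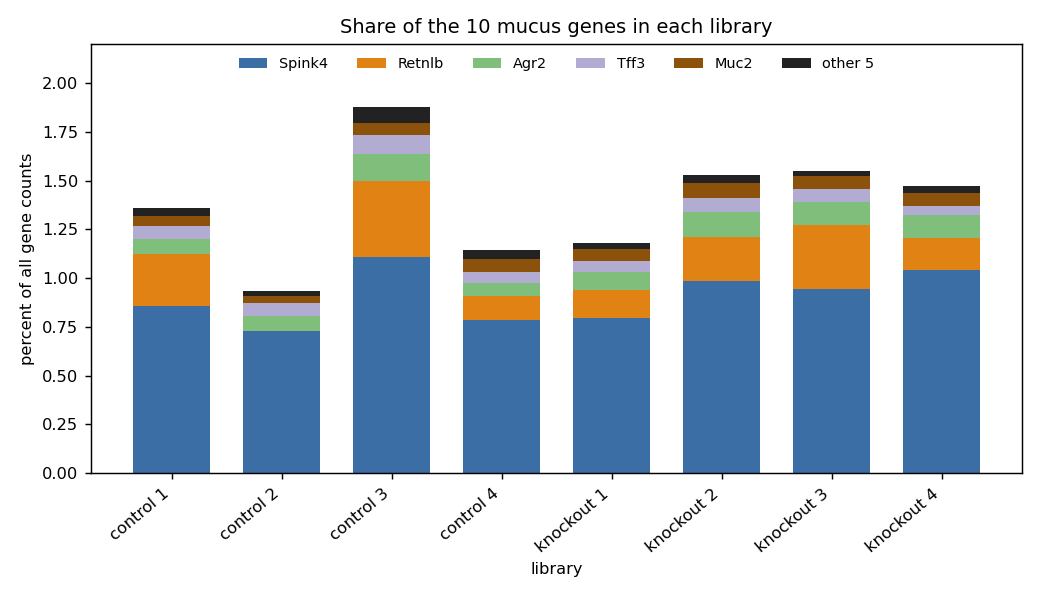
Stacked bars give the percent of all gene counts taken by Spink4, Retnlb, Agr2, Tff3, Muc2 and the sum of the other 5 mucus genes (y axis) in each of the 8 libraries (x axis), with no scaling beyond the library total. Spink4 forms most of every bar, Retnlb is nearly absent from control 2, and the bars reach from 0.936% in control 2 to 1.88% in control 3.

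Per kilobase of exon, so that genes of different length can be set beside each other, the mean level over the 8 libraries was highest for Spink4 at 19620 ± 6541 normalized CPM per kb (SD, n = 8). Every library held more Spink4 per kb than any library held of the other genes. Retnlb followed at 3213 ± 2608, Tff3 at 1391 ± 586 and Agr2 at 815 ± 347, and the ranges of these 3 genes overlapped. Muc13 at 91.4 ± 20.9 and Muc2 at 88.9 ± 31.4 did not differ beyond their spread, and both were below every library's value for Agr2 and Tff3. Zg16, at 36.8 ± 83.7, ran from 0 to 241 and overlapped most of the list. Clca1 at 7.68 ± 7.89 and Fcgbp at 6.58 ± 8.06 overlapped each other and stayed below Muc2 in every library. Muc4 was lowest, at 0.682 ± 0.342.

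The genes fell into a level set and a spread set. With counts scaled by totals alone, the highest and lowest libraries differed 1.38-fold for Muc13, 1.52-fold for Spink4, 1.97-fold for Agr2, 2.10-fold for Tff3 and 2.24-fold for Muc2. The corresponding ratio was 13.3 for Fcgbp, 132 for Retnlb and 268 for Clca1. For Zg16, which had no count in knockout 3, the highest library was 656-fold above the lowest one with a count. Muc4, with 9 to 181 counts per library, differed 19.6-fold. For Fcgbp, Retnlb, Clca1 and Zg16, spread of this kind was seen inside the control group as well as between the groups. For Muc4 the controls lay at 6.19 to 13.1 CPM on totals, and the spread came from knockout 3, at 0.67 CPM. Whether the small number of sorted cells behind each library adds to the spread was not tested.

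**Figure D2:**
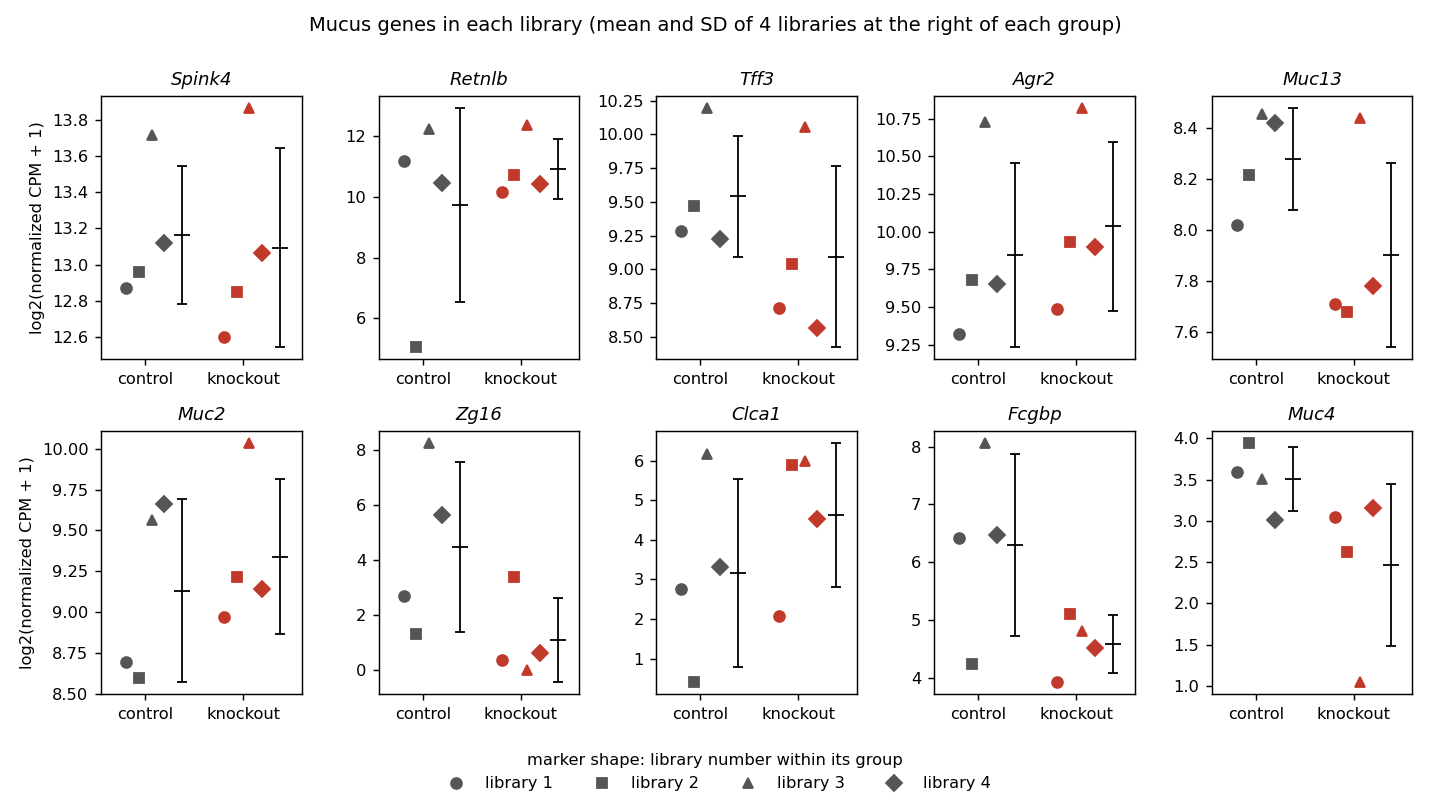
Each panel shows one mucus gene, with log2(normalized CPM + 1) on the y axis, the 4 control libraries in grey and the 4 knockout libraries in red on the x axis, marker shapes for the library number within its group, and the mean with SD beside each group. Triangles (control 3 and knockout 3) are at or near the top of most panels, the groups overlap in all 10, and the y axes differ between panels.

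Between the genotypes, none of the 10 genes was called. A call needed an adjusted p under or at 0.05 and a shift of 0.5 or more on the log2 scale in the edgeR quasi-likelihood test, which was run on the 13439 genes left by the filter on low counts. Of these, 25 were called (0.186%), 21 higher (0.156%) and 4 lower (0.0298%) in the knockouts. At 10% FDR the count was also 0 of 10, against 38 genes or 0.283%. At an unadjusted p under 0.05 it was 2 of 10, Fcgbp and Zg16, against 924 genes or 6.88%. DESeq2's Wald test and limma-voom with quality weights also called 0 of the 10, and over all genes they called 138 (1.03%) and 95 (0.707%). Of the 10 mucus genes 4 had a higher fitted level in the knockouts and 6 a lower one, with a median log2 fold change of -0.19 beside 0.0085 over all tested genes. This split was 1 higher and 9 lower without knockout 3, 2 higher and 8 lower with limma-voom, and 5 and 5 on totals and without control 3, knockout 1, knockout 2 or knockout 4. In no mucus gene were the 4 knockouts separated from the 4 controls, a separation that 608 genes, or 4.52%, had. The study describes the samples of a genotype as independent mice, and the tests measure the spread between these samples. One animal number recurs in the labels, on control 4 and on knockout 4, and it paired no samples here. A single mouse cannot carry both genotypes, so what this number stands for is not known. The independence of control 4 and knockout 4 could not be checked.

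Fcgbp, a large von Willebrand D-domain protein of the mucus gel, had 1355, 226, 2959 and 1108 counts in controls 1 to 4 and 238, 581, 229 and 360 in knockouts 1 to 4. Normalized, this was 84.9, 17.9, 266 and 87.5 CPM in the controls and 14.1, 33.4, 26.9 and 21.8 CPM in the knockouts. Controls 1, 3 and 4 were above every knockout, and control 2 lay among them. The means were 114 ± 106 and 24.1 ± 8.12 CPM (SD, n = 4 each). The log2 fold change was -2.24 ± 0.62 (SE; 95% interval -3.60 to -0.88; adjusted p = 0.361, edgeR). Without control 3 it was -1.40 (adjusted p = 0.638) and without control 2 it was -2.61 (adjusted p = 0.0843).

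Zg16, a lectin-like protein that binds the walls of Gram-positive bacteria, had 87, 19, 3379 and 626 counts in the controls and 5, 163, 0 and 9 in the knockouts. Knockouts 1, 3 and 4 were below every control, while knockout 2 was above controls 1 and 2. In CPM, control 3 stood at 303 and control 4 at 49.4, against 5.45 and 1.51 in controls 1 and 2 and 0 to 9.36 in the knockouts. For knockout 3, a count of 0 allows up to 0.352 CPM. The log2 fold change was -5.05 ± 2.02 (SE; 95% interval -9.84 to -0.27; adjusted p = 0.68, edgeR). It was -2.82 without control 3 and -8.07 without knockout 2, neither past the threshold.

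The label numbers of the libraries form 2 runs, controls 1 and 2 with knockouts 1 and 2, and controls 3 and 4 with knockouts 3 and 4. For Fcgbp and Zg16 the genotypes did not overlap in the second run. There, Fcgbp was at 266 and 87.5 CPM in the controls against 26.9 and 21.8 in the knockouts, and Zg16 at 303 and 49.4 against 0 and 0.546. In the first run the genotypes overlapped for these genes, with Fcgbp at 84.9 and 17.9 against 14.1 and 33.4 and Zg16 at 5.45 and 1.51 against 0.297 and 9.36. Other mucus genes were separated in the first run and overlapped in the second. These were Muc2, higher in the knockouts, and Tff3, Spink4, Muc13 and Muc4, lower in the knockouts. Groups of 2 libraries separate easily, and the share of all genes that did so was not computed. With the run as a block, the log2 fold change was -1.99 for Fcgbp (adjusted p = 0.418, edgeR) and -3.49 for Zg16 (adjusted p = 0.875, edgeR). What the runs stand for is not given in the sources used here, and a difference in the effect between them was not tested.

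Clca1, a secreted protease of the mucus that is also known as Gob5, was the member with the highest fold change and one of the least certain. It had 92, 4, 793 and 114 counts in the controls and 54, 1013, 531 and 365 in the knockouts. Knockouts 2, 3 and 4 were above controls 1, 2 and 4, but control 3 was above all knockouts in normalized CPM, at 71.2 against 3.21 to 62.4. On totals alone, knockout 2 was above control 3, at 77.7 against 58.5 CPM. The fitted log2 fold change was 0.76 ± 1.36 (SE; 95% interval -2.44 to 3.97; adjusted p = 0.979, edgeR). Without control 3 it was 2.85 (adjusted p = 0.727), and with the run as a block it was 1.58 (adjusted p = 0.894).

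Retnlb had 36831, 408, 52905 and 17550 counts in the controls and 19175, 29260, 44340 and 22483 in the knockouts. Control 2, at 32.4 CPM, was the only library under 1139 CPM. This gave a log2 fold change of 0.15 ± 0.96 (SE; 95% interval -1.97 to 2.27; adjusted p = 0.995, edgeR). It was -0.27 without control 2, 0.92 without control 3 and -0.61 without knockout 3, so its direction was set by single libraries.

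Of the level genes, Muc2 had 6588, 4871, 8418 and 10259 counts in the controls and 8404, 10343, 8919 and 9298 in the knockouts. In CPM this was 413, 386, 756 and 810 against 499, 594, 1048 and 564, and the groups overlapped widely. The log2 fold change of 0.19 ± 0.32 (SE) had a 95% interval from -0.51 to 0.89, and it was -0.10 without knockout 3. Agr2, a protein disulfide isomerase of the endoplasmic reticulum needed for Muc2 production, had 10219, 10304, 18904 and 10183 counts in the controls and 12050, 16979, 15393 and 15753 in the knockouts. Per total, every knockout was above controls 1, 2 and 4 and below control 3. This order did not hold after TMM scaling. There, knockout 1, at 716 CPM, was below controls 2 and 4, at 818 and 804 CPM. Knockout 3, at 1808 CPM, was above control 3, at 1697 CPM. The log2 fold change of Agr2 was 0.17 ± 0.36 (SE; 95% interval -0.63 to 0.97), and -0.17 without knockout 3.

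Spink4 had 119324, 100356, 149951 and 112697 counts in the controls and 104495, 128302, 127142 and 140972 in the knockouts, with a log2 fold change of -0.03 ± 0.35 (SE; 95% interval -0.80 to 0.74). After TMM scaling the controls lay at 7479 to 13460 CPM and the knockouts at 6207 to 14930 CPM, with 2 knockouts below and 1 above every control. Scaled by totals alone, the knockouts lay inside the range of the controls and the fold change was 0.11. Tff3, the intestinal trefoil peptide that is co-secreted with Muc2, had 9928, 8927, 13074 and 7553 counts in the controls and 7061, 9171, 9054 and 6237 in the knockouts. Its log2 fold change was -0.38 ± 0.35 (SE; 95% interval -1.15 to 0.39). After TMM scaling, knockouts 1, 2 and 4 were below every control for Tff3, at 378 to 527 CPM against 596 to 1173, and only knockout 3, at 1064 CPM, was inside their range. Scaled by totals alone, 1 knockout was below every control.

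Muc13, a transmembrane mucin, was the steadiest of the 10. It had 4123, 3729, 3891 and 4326 counts in the controls and 3505, 3546, 2943 and 3601 in the knockouts. Scaled by totals alone, knockouts 1, 3 and 4 were below every control and knockout 2 was inside their range, with means of 289 ± 13.5 and 256 ± 24.9 CPM (SD, n = 4 each). After TMM scaling, knockouts 1, 2 and 4 were at 204 to 218 CPM against 258 to 349 in the controls, and knockout 3 was at 346 CPM. The log2 fold change was -0.35 ± 0.22 (SE; 95% interval -0.83 to 0.12; adjusted p = 0.855, edgeR). Without knockout 3 it was -0.57 for Muc13 (adjusted p = 0.146, edgeR) and -0.82 for Tff3 (adjusted p = 0.205, edgeR).

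Muc4, the other transmembrane mucin, had 176, 181, 116 and 89 counts in the controls and 122, 90, 9 and 130 in the knockouts. Knockout 3 was lowest at 1.06 CPM, the other knockouts were at 5.17 to 7.89 CPM, and the controls were at 7.03 to 14.4 CPM. Its log2 fold change was -0.98 ± 0.45 (SE; 95% interval -1.97 to 0.01; adjusted p = 0.732, edgeR). Without knockout 3 it was -0.67 (adjusted p = 0.368).

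**Figure D3:**
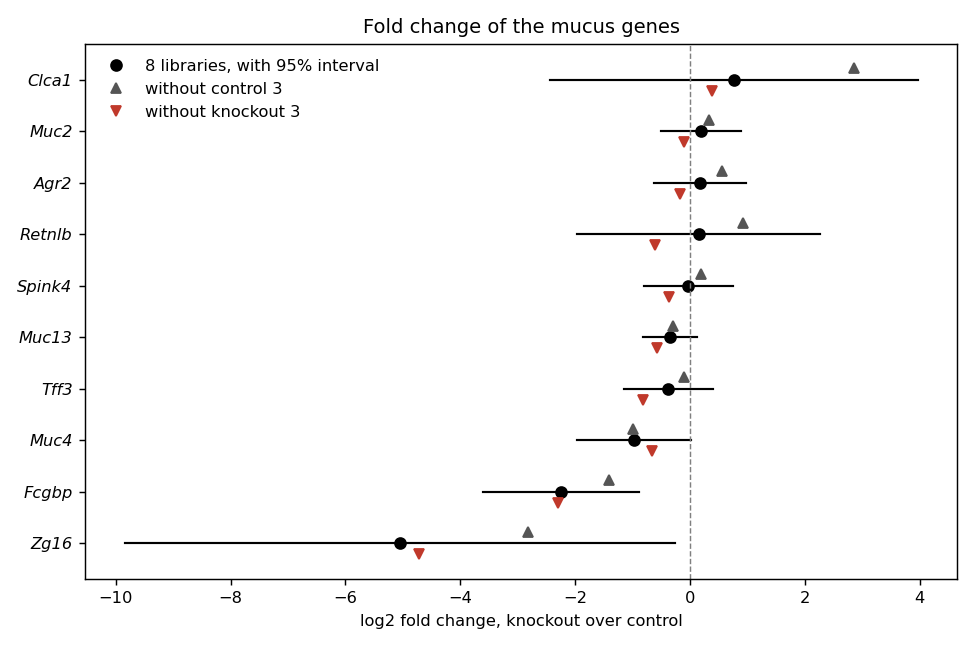
The x axis gives the log2 fold change, knockout over control, for each mucus gene on the y axis, as fitted on 8 libraries (black point with its 95% interval), without control 3 (grey triangle) and without knockout 3 (red triangle). Intervals of 8 genes include 0, those of Fcgbp and Zg16 do not before adjustment over all genes, and leaving out 1 library moves Clca1 and Zg16 most.

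Whether the genes moved together was asked of all 45 pairs over the 8 libraries, on log2(normalized CPM + 1), with two-sided exact permutation tests over all pairings of the libraries. None of the 45 pairs passed after Benjamini-Hochberg adjustment, whose smallest value was 0.1795 for Spearman's rho. Before adjustment 7 pairs had p of at most 0.05 on rho, 6 of them positive. Of the 45 rho values 38 were positive and the median was 0.476, where the median over all 90296641 pairs of tested genes was 0.0. Each run of label numbers holds 4 libraries, too few for a correlation of its own.

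The scale decided much of this. Scaled by totals alone, the median over the 45 pairs was 0.214 with 30 positive, while the median over all gene pairs was 0.357 with 76.95% positive. The TMM factors themselves ran against Muc13 (rho = -0.976), Spink4 (rho = -0.905) and Tff3 (rho = -0.810), that is, libraries with a low factor had high normalized values of these genes. The pair with the highest rho, Spink4 and Muc13, was at 0.88 after TMM scaling (exact permutation p = 0.00724; Pearson's r = 0.77, exact permutation p = 0.0191; r = 0.62 without control 3 and knockout 3) and at -0.19 on totals. Tff3 and Muc13 likewise went from 0.83 to 0.31.

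Other pairs with an unadjusted p of at most 0.05 after TMM scaling kept their sign on totals, where Fcgbp with Zg16 (exact permutation p = 0.0279) and Clca1 with Agr2 (exact permutation p = 0.0458) stayed under 0.05 before adjustment. Clca1 with Retnlb and Muc2 with Muc4 (each exact permutation p = 0.0694) and Muc2 with Clca1 (exact permutation p = 0.115) did not. On totals 7 pairs again had p of at most 0.05 before adjustment, and 5 of them were not among the 7 found after TMM scaling. These were Agr2 with Spink4 and Zg16 with Muc13, each at a rho of 0.86 (exact permutation p = 0.0107) and the highest on totals, Clca1 with Spink4 at 0.81, Spink4 with Retnlb at 0.79 and Fcgbp with Muc13 at 0.74. Fcgbp and Zg16 had a rho of 0.81 after TMM scaling and 0.79 on totals, with Pearson's r at 0.91 (exact permutation p = 0.0218 for rho and 0.00365 for r after TMM scaling; adjusted p = 0.1795 for rho). Without controls 3 and 4, the 2 farthest from the median of Fcgbp, their r was 0.65. Clca1 and Agr2 had a rho of 0.81 and 0.74, and their r was 0.76 over all libraries (exact permutation p = 0.0282) and 0.83 without controls 2 and 3. Clca1 and Retnlb, which were both lowest in control 2, had a rho of 0.81 and 0.69, with r at 0.81 (exact permutation p = 0.006) and 0.56 without controls 2 and 3. Muc2 and Clca1 were at 0.79 and 0.62, with r at 0.74 (exact permutation p = 0.0385) and 0.51 without control 2 and knockout 3. The only pair with a negative rho at an unadjusted p of at most 0.05 was Muc2 and Muc4, at -0.79 and -0.69, with r at -0.76 (exact permutation p = 0.0182) that was -0.22 without control 2 and knockout 3.

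Fcgbp and Clca1 had mean differences of opposite sign between the genotypes and yet ran in parallel inside them. Their rho was 0.60 over the 8 libraries and 0.95 for deviations from the genotype means (exact permutation p = 0.00694 within genotypes, not past the threshold after adjustment over 45 pairs). With genotype means removed, the median over the 45 pairs was 0.5 and 0 pairs passed. The permutations within genotypes are too few for a pair to pass by itself after adjustment, so this count says little. For the values themselves, the median of 0.476 was 0.214 without control 3, 0.464 without knockout 3 and 0.257 without both.

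**Figure D4:**
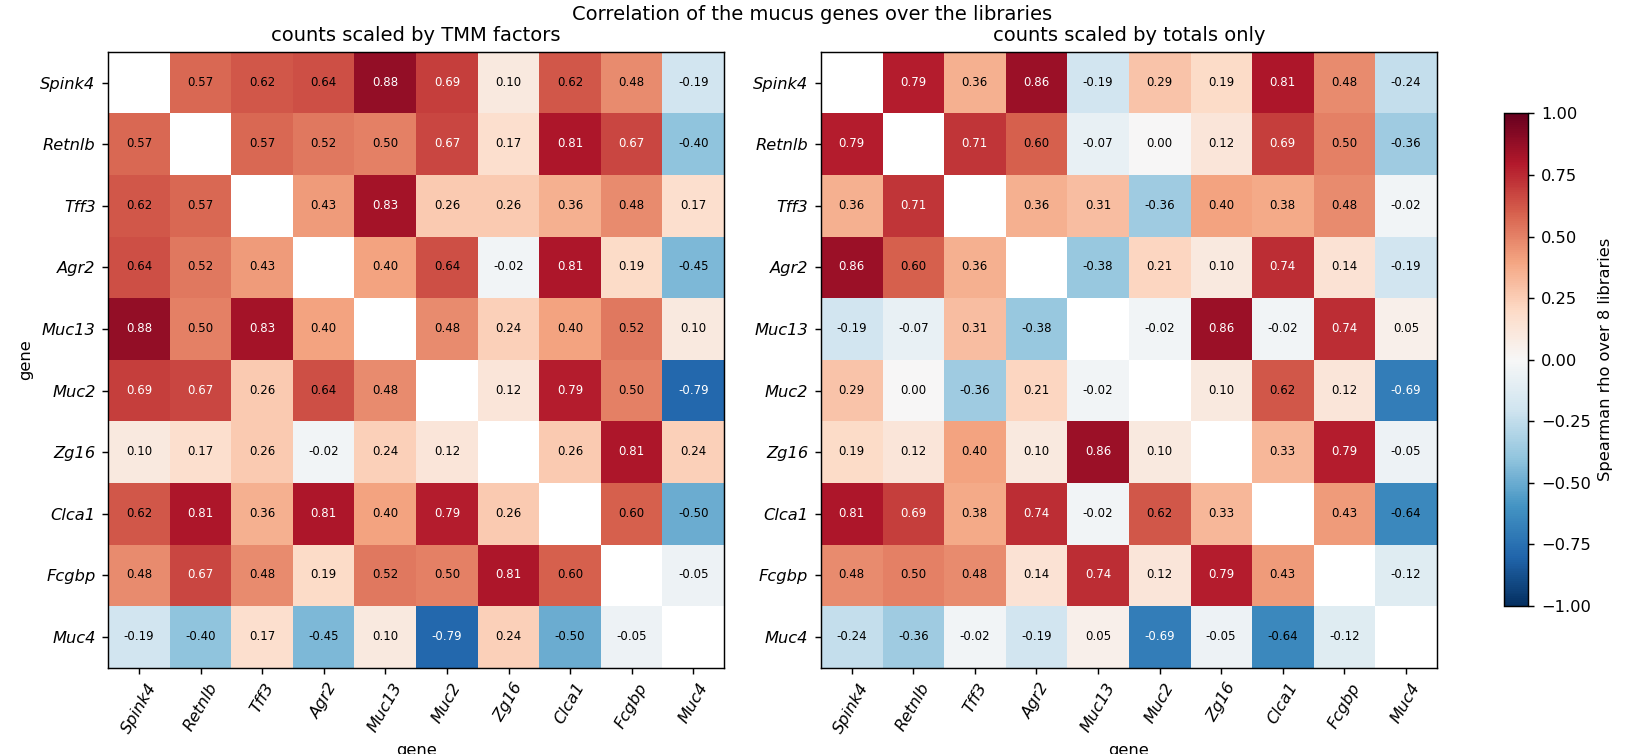
Each cell gives Spearman's rho over the 8 libraries for a pair of mucus genes, with counts scaled by TMM factors in the left panel and by totals only in the right panel, on a colour scale from -1 (blue) to 1 (red). The left panel is mostly positive outside the Muc4 row, while in the right panel the Muc13 row is near or below 0 except with Tff3, Zg16 and Fcgbp.

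The shared pattern was summarised by the mean z-score of the 10 genes, which was 1.23 in control 3, 0.55 in knockout 3 and 0.27 in control 4 and negative elsewhere, lowest in knockout 1 at -0.75. Of the 10 genes, 9 correlated positively with it, from 0.61 for Retnlb to 0.87 for Spink4, and Muc4 was at -0.28, values that include each gene's own part. Among 4320 other genes with a mean of at least 10 normalized CPM, the 10 with the highest Pearson's r to this mean were R3hdm1, Rap1a, Eif3j2, Gfpt1, Hspa5, Atg3, Edem1, Ppp3r1, Tm9sf3 and Dnajc1. Their r over the 8 libraries ran from 0.89 to 0.92. On totals alone it was 0.84 for Hspa5, the main chaperone of the endoplasmic reticulum, 0.77 for Ppp3r1, a calcineurin subunit, 0.76 for Edem1, which helps to clear misfolded glycoproteins, and 0.72 for Gfpt1, the first enzyme of the hexosamine pathway. It was 0.69 for Rap1a, 0.67 for Dnajc1, 0.64 for Eif3j2, 0.52 for Tm9sf3, 0.42 for Atg3 and 0.37 for R3hdm1. The values after TMM scaling share the library factors with the mucus genes, those on totals share the libraries, and both are given as a description.

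Beyond the 10, 24 of 26 other goblet cell genes were measured above the filter and 0 were called. Their median log2 fold change was 0.07, with 14 higher and 10 lower. On totals it was 0.21 with 19 higher and 5 lower, and with limma-voom it was -0.20 with 4 higher and 20 lower. Spdef, a transcription factor of goblet cell maturation, was at 0.10 ± 0.36 (SE). Hepacam2 had the smallest p of this list and did not overlap between the groups, at 91.2 ± 11.8 CPM in the controls and 60.7 ± 12.4 CPM in the knockouts (SD, n = 4 each). Hepacam2 was 1 of 24 without overlap, where 4.52% of all tested genes had none. Its log2 fold change was -0.59 (adjusted p = 0.454, edgeR), and without knockout 3 it was -0.74 and passed the test (adjusted p = 0.0431, edgeR), as the only one of 25. In that fit 152 of 14086 genes were called (1.08%). Capn9 was next, at 0.54 ± 0.33 (SE; adjusted p = 0.851, edgeR). The direction of this list also turned with single libraries. Without knockout 3, 6 were higher and 19 lower, with a median of -0.31, without control 1 the median was -0.13, and without control 2 it was -0.05.

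Of 25 genes with a row among 26 relatives of the mucus genes, 10 passed the filter and 0 were called, with 3 higher, 7 lower and a median log2 fold change of -0.77. Single libraries moved this median, which was -0.04 without control 1, with 5 higher and 6 lower, and -0.33 without knockout 3. Tff1 and Retn had no count in any library, and Muc5b, a gel-forming mucin of the airways, had at most 2. The smallest p-values were those of 9530053A07Rik, a relative of Fcgbp, at -1.67 ± 0.55 (SE; adjusted p = 0.479, edgeR), and Agr3, a relative of Agr2, at -1.54 ± 0.58 (SE; adjusted p = 0.591, edgeR). Agr3 was at 7.76 ± 3.33 CPM in the controls and 2.59 ± 1.90 CPM in the knockouts (SD, n = 4 each). With no filter on low counts both were called, in a fit that called 290 of 37039 genes (0.783%).

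Of 18 genes for release, unfolding and crosslinking of mucus, 15 were measured above the filter and 0 were called, with 4 higher, 11 lower and a median log2 fold change of -0.32. Slc12a2, the cotransporter that loads chloride for fluid secretion, did not overlap between the groups, at 183 ± 59.4 CPM against 102 ± 27.3 CPM (SD, n = 4 each) and a log2 fold change of -0.85 (adjusted p = 0.468, edgeR). Tgm2, a transglutaminase, did not overlap either, at -0.56 (adjusted p = 0.662, edgeR). Slc12a2 and Tgm2 were the 2 of 15 without overlap, where 4.52% of all tested genes had none. Nlrp6, an inflammasome sensor tied to mucus release, was the third at an unadjusted p under 0.05, at -1.03 (adjusted p = 0.664, edgeR). In the fit with no filter, which called 0.783% of all genes, Slc12a2 and Nlrp6 were called. Scaled by totals alone the median of this list was -0.02, with 7 higher and 8 lower.

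Markers of other cells were read from the same comparison, and their part in the values above was not tested. All 10 enteroendocrine markers had lower fitted levels in the knockouts, with 6 at an unadjusted p under 0.05 and a median log2 fold change of -1.63. Their summed level was 895 to 1914 CPM in the controls and 69.8 to 1850 CPM in the knockouts, and the smallest p-values were those of Neurod1 at -2.27 (adjusted p = 0.0629, edgeR) and Tph1 at -3.92 (adjusted p = 0.316, edgeR). Without knockout 1, both Tph1 and Tac1 were called, Tph1 at -7.88 (adjusted p = 0.00117, edgeR) and Tac1 at -5.24 (adjusted p = 0.0114, edgeR), beside -2.89 for Tac1 on all libraries. Tph1 had 53, 0, 0 and 2 counts in knockouts 1 to 4, so its fitted value without knockout 1 is no bound. Of 9 tuft cell markers 8 were lower, with sums of 270 to 792 CPM and 140 to 513 CPM, Rgs13 at -1.47 (adjusted p = 0.171, edgeR) and Dclk1 at -1.09 (adjusted p = 0.75, edgeR). With the run of label numbers as a block, Rgs13 was called at -1.57 (adjusted p = 0.0254, edgeR) in a fit that called 24 of all genes (0.179%), and 8 of the 9 tuft cell markers had an unadjusted p under 0.05, against 1 without the block. Of all genes 7.92% had such a p in the blocked fit. Of 10 enterocyte markers 8 were lower, with sums of 144 to 328 CPM and 96.6 to 264 CPM, Fabp2 at -1.07 (adjusted p = 0.279, edgeR) and Apoc3 at -1.93 (adjusted p = 0.595, edgeR). Crypt stem cell markers were at a median of -0.08 over 8 genes, with Tnfrsf19 at 1.36 (adjusted p = 0.23, edgeR) and Olfm4 at -1.11 (adjusted p = 0.671, edgeR). This list had 2 higher and 6 lower after TMM scaling and 5 higher and 3 lower on totals. Paneth cell markers were at a median of -0.11 over 15 genes, with Cd24a, the sorting marker, at -0.26 and Ang4 at 0.38, neither of them past the test. Without knockout 3 the median of the Paneth cell list was -0.56, with 14 of 15 lower and 6 at an unadjusted p under 0.05, against 11 lower and 0 in the fit on all libraries. In the fit without knockout 3, 11.3% of all genes had such a p. Without control 3 it was 0.01, with 8 higher and 7 lower, and the same split was found without knockout 2 (median 0.0043) and on totals (median 0.02). The stromal list had 1 of 9 genes above the filter, Pecam1 at 0.06, and sums of 3.87 to 6.93 CPM. Immediate early genes had a median of 0.38 over 7 genes, with Atf3 at 1.15 (adjusted p = 0.473, edgeR) and Ier2 at 0.50 (adjusted p = 0.702, edgeR). With TMM factors, the filter on low counts and no block, edgeR called none of the markers in these lists on the 8 libraries, and at 10% FDR only Neurod1 passed. Neurod1 was called with upper-quartile factors (adjusted p = 0.0446, edgeR), which called 0.186% of all genes, and where every library had to hold 10 counts (adjusted p = 0.0447, edgeR), which called 0.131%. DESeq2's Wald test, at 1.03% of all genes, called Chga, Fabp2, Neurod1, Rgs13 and Tnfrsf19, and limma-voom, at 0.707%, called Fabp2, Neurod1 and Tnfrsf19. With no filter, at 0.783%, edgeR called Atf3, Fabp2, Neurod1, Rgs13, Sct and Tnfrsf19. Single libraries mattered as well. Without knockout 1, where 0.152% of all genes were called, edgeR called Neurod1, Rgs13, Tac1 and Tph1. Without knockout 4, at 0.123%, it called Fabp2 at -1.44 (adjusted p = 0.0238, edgeR). Tnfrsf19 was called, higher in the knockouts, without knockout 3 (adjusted p = 0.00187, edgeR), at 1.08%, and without both control 3 and knockout 3 (adjusted p = 0.00548, edgeR), at 0.826%.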

How the data were processed

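RNA of sorted Paneth cells from 4 controls and 4 knockouts was sequenced, and the labels' genotype set the groups. The authors aligned reads to mm10 with GSNAP and counted uniquely mapped reads per gene of Ensembl release 92 with featureCounts 1.6.3. The deposited values are raw counts without normalization, and the 92 spike-in rows (at most 11 counts in a library) were left out. Symbols were matched for 53620 of 53801 genes.

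TMM factors and robust quasi-likelihood fits were computed in R 4.3.3 with edgeR 4.0.16 for 13439 genes that passed filterByExpr (minimum count 10, minimum total 15), with p-values adjusted over all of them. The standard error is the log2 fold change divided by the square root of F, and intervals use the fit's degrees of freedom. Normalized CPM are edgeR's CPM with the TMM-scaled total as library size. Alternatives used DESeq2 1.42.0, limma 3.58.1, other factors, filters and thresholds, the run of label numbers as a block and each library left out. Exon lengths are those of the deposited table, and overlaps between exons were read from GENCODE M21. Reads copied by PCR are not independent molecules, so limits drawn from counts cover counting error only.

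The mucus genes and all lists were chosen with earlier results of these data known. The genes named are the 10 mucus genes, genes past both thresholds and the 2 of smallest p in each list, the 10 genes most like the mean pattern, and Kmt2a. Spdef, Muc5b, Lyz1, Tff1, Retn, Nlrp6, Ptprc, Pecam1, Chga, Sct and Tac1 were added after their values were seen. Replicate numbers are names in accession order.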

Additional observations from a re-analysis of the deposited data

Results flagged for a closer look

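A library was marked when its gap to the nearest library of its group, as a share of the group's range, exceeded Dixon's 95% critical value for 4 samples, 0.829. Of 50 groups tested 12 were marked. For independent groups of normally distributed values, about 1 in 20, or 2.5, would be marked. Several levels here are skewed and the values of knockout 3 share its factor, so 2.5 is no measure of chance for these groups.

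Among the mucus genes, control 3 was apart from the other controls for Clca1 (71.2 CPM against 0.317 to 9.0, gap share 0.877), Zg16 (303 CPM against 1.51 to 49.4, gap share 0.841) and Agr2 (1697 CPM against 640 to 818, gap share 0.832). Knockout 3 was apart from the other knockouts for Retnlb (5208 CPM against 1139 to 1680, gap share 0.867) and Muc13 (346 CPM against 204 to 218, gap share 0.896). Knockout 2 was apart for Zg16, at 9.36 CPM against 0 to 0.546 (gap share 0.942). Scaled by totals, the marks of control 3 and of knockout 2 stayed above the critical value, at 0.869 for Clca1, 0.83 and 0.947 for Zg16 and 0.942 for Agr2. Knockout 3 did not for Retnlb (3293 CPM against 1457 to 2244, gap share 0.571), and for Muc13 it turned from the highest to the lowest knockout (219 CPM against 266 to 272, gap share 0.882).

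Knockout 3 was also apart in its TMM factor (gap share 0.829), its mitochondrial percent (gap share 0.957) and the summed levels of other goblet cell genes (0.917), Paneth cell markers (0.857) and immediate early genes (0.887). Control 4 was apart for enterocyte markers, at 144 CPM against 297 to 328 (gap share 0.831). The factor of knockout 3 scales each of its sums. As percent of the total count none of these 4 sums was marked. Knockout 3 then held 0.323% for other goblet cell genes against 0.228% to 0.255% (gap share 0.709), 61.5% for Paneth cell markers against 45.5% to 52.4% (gap share 0.568) and, now the lowest, 0.0502% for immediate early genes against 0.0596% to 0.0691% (gap share 0.495). Control 4 held 0.0127% for enterocyte markers against 0.0253% to 0.0377% (gap share 0.504). Causes were not tested.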

How the results depend on the processing

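No mucus gene was called under any alternative, and 0 of 45 pairs passed on rho. With genotype means removed, and without control 3 and knockout 3, too few permutations exist for a pair to pass by itself. The count of pairs in these settings therefore says little. On Pearson's r 1 pair passed, only without control 1. The count of all genes called, 25, was 38 at 10% FDR, 290 with no filter, 13 with at least 10 counts in every library, 138 with DESeq2's Wald test, 95 with limma-voom, 15 on total counts, 115 without control 3 and knockout 3, and 10 to 152 with each library left out. Zg16, Clca1 and Muc4 have no value where every library must hold 10 counts. Of 187 fold changes of mucus genes under alternatives, 12 turned sign, in 4 genes. Muc2 was -0.073 and Agr2 -0.13 with limma-voom, and Spink4 was 0.11 on total counts. With each library left out, Muc2 ran from -0.10 to 0.38, Agr2 from -0.17 to 0.56, Spink4 from -0.36 to 0.19 and Retnlb from -0.61 to 0.92. The median over the mucus genes, -0.19, ran from -0.59 without knockout 3 to 0.04 without control 3. On total counts, an alternative chosen after seeing the data, the median of all genes moved from 0.0085 to 0.246 and that of the mucus genes to -0.03. The median rho of the pairs, 0.476, moved to 0.214 on total counts and without control 3, and to 0.257 without control 3 and knockout 3. No paired analysis was run. The groups share only 1 animal number in the labels, that of control 4 and knockout 4, which cannot be a single mouse of both genotypes. The methods text calls the animals littermates, and which of them share a litter is not given in the sources used here.

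Depth did not limit the abundant genes, while Zg16, Clca1 and Muc4 held under 10 counts in at least 1 library, where a ratio rests on few reads. With 4 libraries a group, the intervals of Clca1, Retnlb and Zg16 leave even their direction or size unsettled.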
